A study of Homo sapiens with 24 samples.

Results

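The genes described here encode 10 enzymes and partner proteins that write, copy or remove DNA methylation or that form Polycomb repressive complex 2 (PRC2), measured at the RNA level in acute myeloid leukemia (AML) cells treated with ABT-869, SAHA or both. They are DNMT1, DNMT3A, DNMT3B, UHRF1, HELLS, TET2, TET3, EZH2, SUZ12 and EED, 10 of the 19775 genes that had a probe set of their own on the array. They were chosen by name for their function, and 23 probe sets were assigned to 1 of them alone. The brightest probe set of each gene over all arrays served as its main probe set, and the other 13 are described after the main results. A further probe set that SUZ12 shares with another gene was left out.

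The study treated 2 human AML lines that carry the FLT3 internal tandem duplication, an activating mutation of the receptor tyrosine kinase FLT3. MOLM-14 also keeps a wild-type FLT3 allele, whereas MV4-11 expresses the mutated allele alone. Each line received ABT-869 at 3 nM, an inhibitor of FLT3 and related receptor tyrosine kinases, SAHA (vorinostat) at 6 µM, an inhibitor of histone deacetylases, the Combination of both drugs, or DMSO as the control, for 24 hours. Each of the 8 groups held 3 biological replicates, with 1 Affymetrix U133 Plus 2.0 array per replicate and 24 arrays in all.

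When DNA is replicated, DNMT1 copies methyl groups onto the newly made strand at sites that UHRF1 recognizes, and HELLS is a chromatin remodeller needed for normal DNA methylation. DNMT3A and DNMT3B place methylation at new sites, while TET2 and TET3 oxidize methylcytosine on the way to its removal, and both DNMT3A and TET2 are recurrently mutated in AML. EZH2 is the catalytic subunit of PRC2, which methylates the tail of histone H3 in silenced chromatin, and EED and SUZ12 are core subunits that PRC2 activity requires.

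The values are array signals that were scaled so that the trimmed mean of every array was between 500.06 and 500.07. Changes are differences of log2 signal between group means with their standard error (SE), and genes were called at an adjusted p under 0.05 (limma, Benjamini-Hochberg over 54613 probe sets). Counts by unadjusted p are given without the share of all genes, which was not counted. The median signal of an array was between 61.2 and 80.6 in MOLM-14 and between 78.5 and 99.4 in MV4-11, arrays of 1 group correlated at 0.915 to 0.934, and no pair of arrays held identical values. Of 8 myeloid and monocytic markers, CEBPA, LYZ, PTPRC, ITGAM, SPI1, MPO and CSF1R had median signals between 598 and 19373 over all arrays, while ANPEP was near the bottom of the scale (15.3). Of 7 markers listed together as epithelial and stromal, EPCAM, KRT19 and CDH1 had medians between 5.35 and 19.0 and COL1A2 of 65.9. PECAM1 (3950), KRT18 (810.1) and COL1A1 (362) were above the array medians. The arrays measured RNA of whole cultures, so that fewer cells expressing a gene and less RNA of it per cell cannot be told apart.

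SAHA lowered the maintenance methylation genes and EZH2 in MOLM-14. DNMT1, UHRF1, HELLS, EZH2 and TET3 fell, so that 5 of the 10 genes were called lower and none higher, where 3.62% of all 19775 genes were called lower. The Combination lowered 6 of the 10 in MOLM-14, namely DNMT1, UHRF1, HELLS, EZH2, DNMT3B and SUZ12, where 4.18% of all genes were called lower. The median change of the 10 genes was -0.58 with SAHA and -0.56 with the Combination in this line, against -0.10 and 0.00 over all genes. With only the 6 arrays of a comparison in the fit, none of these calls passed (adjusted p between 0.0834 and 0.108 for SAHA and between 0.0971 and 0.194 for the Combination).

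DNMT1 had signals of 4468.1, 4126.2 and 4586 in SAHA-treated MOLM-14 cells and 4659.9, 3874.3 and 3688.4 in Combination-treated cells, against 9545, 8846.3 and 9004.9 in DMSO-treated cells. Every array with SAHA, alone or combined, lay below every DMSO array. DNMT1 thus fell 2.08-fold with SAHA (log2 change -1.06 ± 0.12, adjusted p = 0.00473, limma) and 2.25-fold with the Combination (-1.17 ± 0.12, adjusted p = 0.00312, limma). With ABT-869 it had 10614.3, 10265.6 and 9673.3, all above the DMSO arrays, with a change of 0.16 ± 0.12 that was not called (adjusted p = 0.815, limma).

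UHRF1, which brings DNMT1 to replicated DNA, had signals of 4971.6, 3804.1 and 4116.3 with SAHA and 4372.5, 3442 and 3426.9 with the Combination, against 10623.6, 11179.4 and 9874 with DMSO in MOLM-14. It fell 2.47-fold with SAHA (-1.30 ± 0.15, adjusted p = 0.00473, limma) and 2.83-fold with the Combination (-1.50 ± 0.15, adjusted p = 0.00307, limma). HELLS had 1187.3, 871.4 and 774 with SAHA and 967, 613.1 and 575.7 with the Combination, against 2872.9, 2791.3 and 2264.5 with DMSO. Replicate 1 was the highest of the 3 in both treated groups, and neither treated group reached the DMSO arrays. HELLS fell 2.83-fold with SAHA (-1.50 ± 0.25, adjusted p = 0.0131, limma) and 3.76-fold with the Combination (-1.91 ± 0.25, adjusted p = 0.00509, limma). The call of HELLS with SAHA was lost without DMSO replicate 1, DMSO replicate 2, SAHA replicate 2 or SAHA replicate 3 of MOLM-14 (adjusted p between 0.0509 and 0.0579).

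EZH2 had 1211.7, 1026.1 and 1042.3 with SAHA and 1265.2, 1080 and 1117.9 with the Combination, against 2593.9, 2427.8 and 2307 with DMSO in MOLM-14. It fell 2.24-fold with SAHA (-1.16 ± 0.12, adjusted p = 0.00401, limma) and 2.12-fold with the Combination (-1.08 ± 0.12, adjusted p = 0.00337, limma). The other PRC2 subunits moved less. SUZ12 had 6029.6, 5709.4 and 6061.4 with the Combination, against 8783, 8643.2 and 7819.9 with DMSO, and fell by 0.50 on the log2 scale (SE 0.10, adjusted p = 0.0201, limma), whereas its change with SAHA was -0.38 ± 0.10 and missed the threshold (adjusted p = 0.0591). The call of SUZ12 with the Combination was lost without DMSO replicate 1 or 2 or any 1 of the 3 Combination replicates (adjusted p between 0.0507 and 0.0781), and its 2 dim probe sets did not share its direction, as given below. EED was between 2210.3 and 2450.4 with the Combination and between 2444.9 and 2687.4 with SAHA, against 2915.8 to 3254.2 with DMSO, with changes of -0.37 ± 0.10 (adjusted p = 0.0701) and -0.24 ± 0.10 (adjusted p = 0.223) that were not called. These missed calls depended on the fit. The settings were 1 fit over all 24 arrays, limma-trend, only probe sets above the median signal, and signals under 32 raised to 32. Each called SUZ12 with SAHA and EED with the Combination lower (adjusted p between 0.00137 and 0.0110, limma). EED with SAHA was called with limma-trend and with signals under 32 raised to 32 (adjusted p = 0.0467 and 0.0318).

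**Figure D1:**
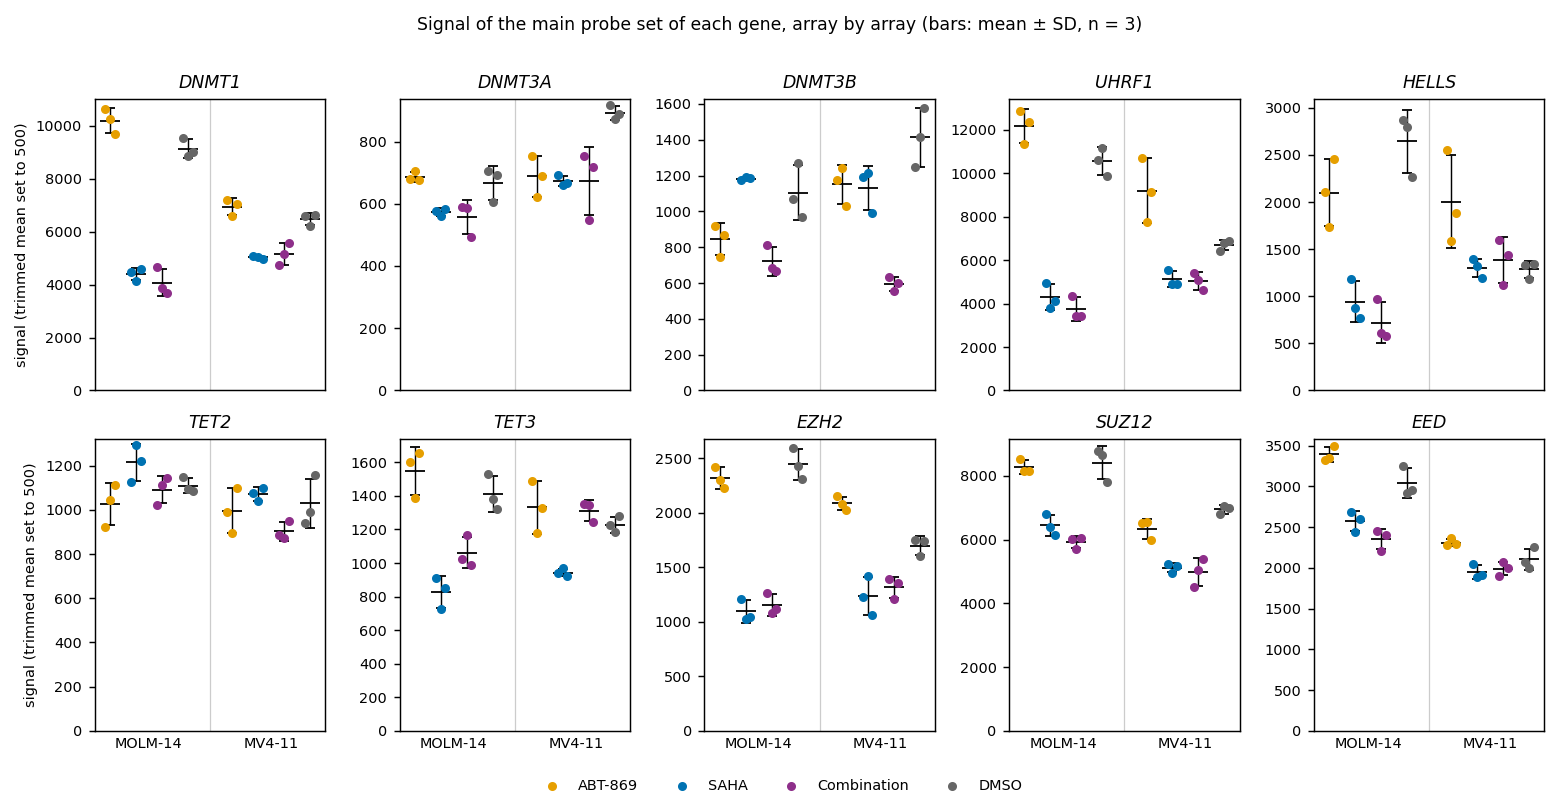
Signal of the main probe set of each gene on each array (vertical axis, linear, from 0), with ABT-869, SAHA, Combination and DMSO from left to right within MOLM-14 and then MV4-11; points are arrays and bars give the mean ± SD (n = 3). DNMT1, UHRF1, HELLS and EZH2 stand well below DMSO with SAHA and with the Combination in MOLM-14, and DNMT3B stands lowest in Combination-treated MV4-11 cells, between 555.1 and 632.9.

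The promoters of the members were searched for sites of E2F factors, which drive transcription of genes used in S phase and bind sites of the form TTTCCCGC, TTTCGCGC, TTTGCCGC or TTTGGCGC. Stretches are shown for the 5 genes with a match and for DNMT3B. These 4 strings were searched on both strands in the RefSeq promoters of GRCh38.p14, from 250 bases before to 50 bases after each start. All 10 genes matched the RefSeq table by symbol, with 20 promoters, and 5 genes held a match in at least 1 promoter: DNMT1, UHRF1, HELLS, EZH2 and SUZ12. Among all 35116 promoters 3.31% held one, and of the 27305 genes with a promoter 3.99% held one in at least 1. The share was 12 of 17 (70.6%) for S phase genes and 2 of 13 (15.4%) for mitosis genes. Capitals mark the matches in the stretches below, which run 5′ to 3′ on the strand of the gene.
DNMT1, chr19:10194934-10195033, minus strand: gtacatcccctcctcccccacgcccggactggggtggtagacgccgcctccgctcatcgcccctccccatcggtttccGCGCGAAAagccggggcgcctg
UHRF1, first of its 3 listed starts, chr19:4909421-4909520, plus strand: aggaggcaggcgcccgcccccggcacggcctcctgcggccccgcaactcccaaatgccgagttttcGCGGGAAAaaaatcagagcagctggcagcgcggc
HELLS, chr10:94545708-94545807, plus strand: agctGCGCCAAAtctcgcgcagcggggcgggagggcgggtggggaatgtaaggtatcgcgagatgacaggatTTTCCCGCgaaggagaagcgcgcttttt
EZH2, first of its 2 listed starts, chr7:148884272-148884371, minus strand: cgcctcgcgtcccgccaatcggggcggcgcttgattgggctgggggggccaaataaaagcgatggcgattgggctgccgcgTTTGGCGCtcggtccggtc
SUZ12, chr17:31936772-31936871, plus strand: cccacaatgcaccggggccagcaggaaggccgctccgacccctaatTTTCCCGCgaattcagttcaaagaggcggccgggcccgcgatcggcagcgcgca
DNMT3B, chr20:32779772-32779871, plus strand: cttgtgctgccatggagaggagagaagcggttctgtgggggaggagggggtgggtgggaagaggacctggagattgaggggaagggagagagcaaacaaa

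In DNMT1 the match spans the start, in EZH2 it lies just after it, and in UHRF1 and HELLS a match ends within 7 bases before it, while that of SUZ12 begins 189 bases before the start. HELLS held a second match 76 bases before its start, and a second UHRF1 promoter held 1 at 160 bases. DNMT3A, DNMT3B, TET2, TET3 and EED held none of the 4 strings in these windows. Of these, TET3 was called lower with SAHA and DNMT3B with the Combination in MOLM-14. The DNMT3B stretch is shown since that gene followed another pattern across the groups. EED, also without a match, is not shown, although it tracked the mean of the S phase genes (Pearson's r 0.93, as given below). The DNMT3B stretch comes from the 1 listed start of DNMT3B. Other starts of that gene were not searched, so its letters and CpG sites there are not described. The 300 bases of this start held 3 CpG sites, where the median promoter held 14. Member promoters with a match held between 22 and 46 CpG sites. Of the other members without a match, TET3 promoters held 45 and 33, those of DNMT3A 18 to 46, those of TET2 13 and 35 and that of EED 16. The strings were chosen with these results known. The CCAAT box (CCAAT), which 39.7% of all genes held in at least 1 promoter, was found in 7 of the 10 genes, and the CHR element (TTTGAA or TTCGAA), which 19.5% of genes held, in 3. A match describes the letters only, binding was not measured, and the part of E2F factors in the changes was not tested.

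In MV4-11, SAHA gave smaller changes than in MOLM-14 for DNMT1, UHRF1, HELLS, EZH2 and TET3, but not for SUZ12, DNMT3A or DNMT3B. DNMT3A changed by -0.41 in MV4-11 and -0.22 in MOLM-14, and SUZ12 by -0.44 and -0.38. None of the 10 genes was called in MV4-11, where 3.97% of all genes were called in either direction. Unadjusted p-values were under 0.05 for 6 of the 10, all with a negative change (limma). The share of all genes at this unadjusted threshold was not counted. DNMT1 had 5075.6, 5032.7 and 4974.8 with SAHA, against 6581.7, 6196.5 and 6618.2 with DMSO, a change of -0.36 ± 0.11 (adjusted p = 0.135, limma). EZH2 had a change of -0.47 ± 0.13, SUZ12 of -0.44 ± 0.11 and UHRF1 of -0.39 ± 0.14 (adjusted p between 0.0814 and 0.218, limma). HELLS was between 1195.6 and 1391.6 with SAHA, against 1183.1 to 1347.6 with DMSO, so that its groups overlapped in this line. The count of 0 depended on the fit. With 1 fit over all 24 arrays, limma-trend, only probe sets above the median signal, or signals under 32 raised to 32, 4, 5, 4 and 4 genes were called lower, with DNMT1, EZH2 and SUZ12 among them each time. The share of all genes called under these settings was not counted, so the higher counts cannot be set against it.

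With the Combination, DNMT3B, one of the enzymes that methylate new sites, was the member with the clearest fall in MV4-11. It had 632.9, 555.1 and 601.1 with the Combination, against 1246.2, 1418.2 and 1575.9 with DMSO. ABT-869 alone gave 1175.4, 1244.2 and 1031.8, and SAHA alone 1191.1, 1213.3 and 988.6, so that the Combination arrays lay below those of all other groups of this line. The fall was 2.36-fold against DMSO (-1.24 ± 0.14, adjusted p = 0.00144, limma), while the changes with ABT-869 (-0.29 ± 0.14, adjusted p = 0.424) and with SAHA (-0.32 ± 0.14, adjusted p = 0.322) were not called. SUZ12 was the other member called lower with the Combination in MV4-11 (4518.9, 5047.3 and 5375.4, against 6788.2, 7068.7 and 6991.8 with DMSO), with a change of -0.48 ± 0.11 (adjusted p = 0.0276, limma). That call of SUZ12 was lost without any 1 of the 3 DMSO replicates or without Combination replicate 1 or 2 (adjusted p between 0.063 and 0.0906). In all, 2 of the 10 genes were called lower and none higher, where 5.82% of all genes were called lower. The same 4 settings called 5, 6, 6 and 6 genes lower, adding DNMT1, DNMT3A and EZH2 each time. Here, too, the share of all genes called under these settings was not counted.

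DNMT3B also fell with the Combination in MOLM-14. It had 815.2, 682.8 and 664.8 with the Combination, against 1070.4, 1272.5 and 971 with DMSO, and fell by 0.61 on the log2 scale (SE 0.14, adjusted p = 0.0377, limma). SAHA alone gave 1173.1, 1190.7 and 1187.4 and ABT-869 alone 919.3, 747.2 and 868.5, with changes of 0.11 ± 0.14 (adjusted p = 0.728) and -0.38 ± 0.14 (adjusted p = 0.624), and the Combination arrays overlapped those of ABT-869 in this line. This call was lost without DMSO replicate 1 or 2, Combination replicate 2 or 3, ABT-869 replicate 3 or any 1 of the 3 SAHA replicates of MOLM-14 (adjusted p between 0.058 and 0.127).

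None of the 10 genes was called with ABT-869 alone in either line. The background was 0.0202% of all genes called in MOLM-14 and 1.29% in MV4-11. Of the 10 genes, 1 and 3 had an unadjusted p under 0.05 (limma), a threshold at which all genes were not counted. In MV4-11 these were DNMT3A (-0.38 ± 0.14), UHRF1 (0.45 ± 0.14) and HELLS (0.61 ± 0.20), with adjusted p between 0.22 and 0.293. UHRF1 had 10710.1, 7749.8 and 9158.4 with ABT-869, against 6441.3, 6801.7 and 6863.5 with DMSO in MV4-11, and the second of these arrays was also the lowest of its group for HELLS (1585.2, beside 2551.8 and 1880).

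TET2, which oxidizes methylcytosine, showed no called change. The signals of its main probe set were between 871.5 and 1295.2 on all 24 arrays, with changes against DMSO between -0.19 and 0.13. TET3, of the same enzyme family, had 910.1, 725.5 and 848.3 with SAHA in MOLM-14 and 1025.7, 1165.3 and 990.4 with the Combination, against 1531.3, 1379.2 and 1322.3 with DMSO. It fell 1.71-fold with SAHA (-0.77 ± 0.13, adjusted p = 0.0155, limma), while the change with the Combination was -0.41 ± 0.13 (adjusted p = 0.12). The call of TET3 with SAHA was lost without DMSO replicate 1 or 2 or SAHA replicate 2 or 3 (adjusted p between 0.0569 and 0.0607), and with every array centred on its median (-0.52, adjusted p = 0.0716). In MV4-11, TET3 had 937.6, 968.3 and 923.3 with SAHA, all below the 1183.3 to 1279 of DMSO, and between 1242.6 and 1351 with the Combination. Its change with SAHA in MV4-11 was -0.38 and was not called. In that comparison 33.1% of all genes had groups that did not overlap. DNMT3A was called against DMSO in neither line by its main probe set, with changes between -0.42 and 0.04.

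**Figure D2:**
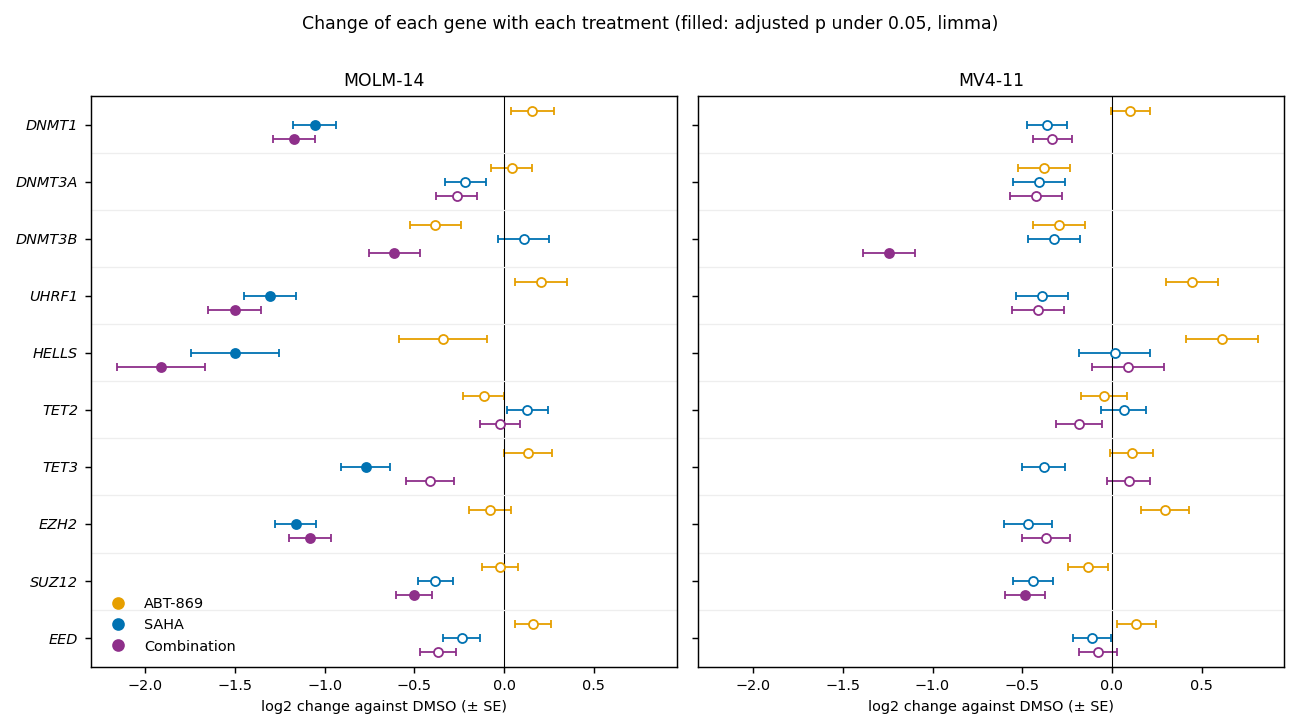
Log2 change against DMSO (horizontal axis, mean ± SE, n = 3 against 3) of each gene with ABT-869, SAHA and the Combination in MOLM-14 (left) and MV4-11 (right); filled points were called by limma. In MOLM-14 the SAHA and Combination points of DNMT1, UHRF1, HELLS and EZH2 lie between -1.91 and -1.06, and in MV4-11 the filled points are DNMT3B at -1.24 and SUZ12 at -0.48, both with the Combination.

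The Combination was also set against each single drug. Against ABT-869 in MOLM-14, 7 of the 10 genes were lower, all but DNMT3A, DNMT3B and TET2, where 5.48% of all genes were called lower. UHRF1 (-1.71 ± 0.15, adjusted p = 0.00109, limma) and HELLS (-1.57 ± 0.25, adjusted p = 0.00595, limma) had the largest changes, and without Combination replicate 2 of MOLM-14 the count was 4. Against ABT-869 in MV4-11, DNMT3B (-0.95 ± 0.14), UHRF1 (-0.86 ± 0.14) and EZH2 (-0.67 ± 0.13) were lower (adjusted p between 0.0106 and 0.0298, limma), where 2.90% of all genes were, and without ABT-869 replicate 3 of MV4-11 the count was 1. These comparisons share the Combination arrays with those against DMSO.

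Against SAHA in MOLM-14, none of the 10 genes and 0% of all genes were called (limma), while 2 of the 10 had an unadjusted p under 0.05, DNMT3B (-0.72 ± 0.14, adjusted p = 0.172) and TET3 (0.36 ± 0.13, adjusted p = 0.441). Against SAHA in MV4-11, DNMT3B alone was called, 1.89-fold lower (-0.92 ± 0.14, adjusted p = 0.03, limma), where 1.26% of all genes were called in either direction. That call was lost without DMSO replicate 2, ABT-869 replicate 1, any 1 of the 3 SAHA replicates or any 1 of the 3 Combination replicates, when the count was 0. The Combination was also compared with the added changes of ABT-869 and SAHA, and the difference was called for none of the 10 genes in either line (limma), where 0.00506% of all genes were called in MOLM-14 and 0.0455% in MV4-11. Unadjusted p-values were under 0.05 for 0 of the 10 genes in MOLM-14 and for 2 in MV4-11, DNMT3B (-0.62 ± 0.20, adjusted p = 0.443) and UHRF1 (-0.47 ± 0.20, adjusted p = 0.596). For the unadjusted counts of these comparisons, too, no share of all genes was counted.

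The response of the maintenance genes and EZH2 differed between the lines. For SAHA, the difference of the log2 changes, MOLM-14 minus MV4-11, was called lower for 4 of the 10 genes, namely HELLS (-1.52 ± 0.31), UHRF1 (-0.91 ± 0.19), DNMT1 (-0.69 ± 0.14) and EZH2 (-0.70 ± 0.16), with adjusted p between 0.0208 and 0.0399 (limma), where 1.04% of all genes were. For the Combination the same 4 genes were called lower, HELLS by -2.001 ± 0.31, UHRF1 by -1.09 ± 0.19, DNMT1 by -0.84 ± 0.14 and EZH2 by -0.71 ± 0.16 (adjusted p between 0.000724 and 0.0101, limma), where 5.63% of all genes were. For ABT-869 none of the 10 genes was called, where 0.546% of all genes were. Of the 10, 3 had an unadjusted p under 0.05 (limma), without a share of all genes counted at that threshold. DNMT3B ran the other way with the Combination (0.63 ± 0.19) without passing the threshold (adjusted p = 0.0574). The SAHA count of 4 was less firm than that of the Combination. It was 0 without MV4-11 DMSO replicate 2, MV4-11 SAHA replicate 1 or 2, MOLM-14 DMSO replicate 1 or MOLM-14 SAHA replicate 2, 1 without MOLM-14 DMSO replicate 2 or MOLM-14 SAHA replicate 3, and 2 without MV4-11 DMSO replicate 1, while the Combination count stayed between 4 and 5.

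**Figure D3:**
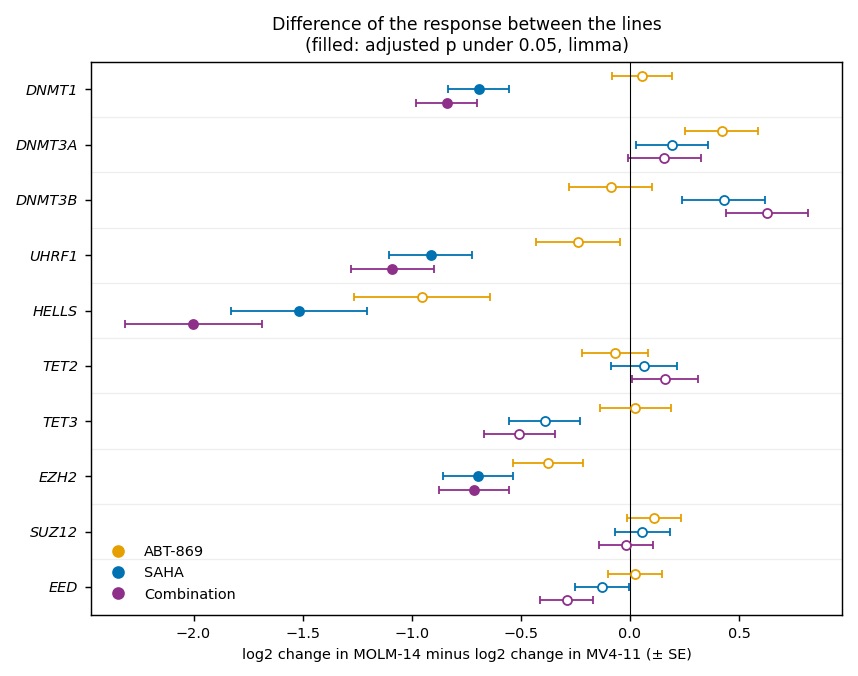
Log2 change in MOLM-14 minus log2 change in MV4-11 (horizontal axis, ± SE) of each gene for ABT-869, SAHA and the Combination; filled points were called by limma. The filled points are DNMT1, UHRF1, HELLS and EZH2 for SAHA and for the Combination, all below 0 and down to -2.001 for HELLS.

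The same genes also started higher in MOLM-14. With DMSO, 5 of the 10 genes were higher in MOLM-14 than in MV4-11, where 8.19% of all genes were called higher, and 1 was lower, where 6.51% were called lower. HELLS had 2872.9, 2791.3 and 2264.5 in MOLM-14, against 1330.9, 1183.1 and 1347.6 in MV4-11, a 2.05-fold difference (1.03 ± 0.22, adjusted p = 0.00588, limma). UHRF1 was 1.57-fold, EZH2 1.44-fold, EED 1.44-fold and DNMT1 1.41-fold higher (adjusted p between 0.000718 and 0.00587, limma). DNMT3A was lower in MOLM-14, with 706.6, 604.3 and 691.9, against 916.4, 873.7 and 886.9 in MV4-11 (-0.42 ± 0.12, adjusted p = 0.0289, limma). With SAHA, DNMT1 stood at 4393 ± 239 in MOLM-14 and 5028 ± 50.6 in MV4-11 (SD, n = 3 each).

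The signals were scaled by the trimmed mean, and centring every array on its median would move all changes of a comparison together. That shift was 0.25 for SAHA against DMSO in MOLM-14, 0.26 for MOLM-14 against MV4-11 with DMSO, 0.16 for the SAHA difference between the lines and -0.05 for the Combination against DMSO in MOLM-14. With it, DNMT1 still had a change of -0.81, UHRF1 of -1.05, HELLS of -1.25 and EZH2 of -0.91 with SAHA in MOLM-14, and the SAHA difference between the lines was called for 1 gene in place of 4.

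The other probe sets of HELLS shared the direction of the main one in MOLM-14 with SAHA and with the Combination. All 5 HELLS probe sets were called lower with SAHA in MOLM-14, and 4 of the 5 with the Combination. The second brightest had 450.2, 358.3 and 294.5 with the Combination, against 1825.9, 1916.5 and 1621.3 with DMSO, a 4.92-fold fall (-2.30 ± 0.17, adjusted p = 0.00201, limma). In MV4-11, this second HELLS probe set rose with ABT-869, at 1128.5, 1000.1 and 1081.8, against 623.7, 692.1 and 612.1 with DMSO (0.74 ± 0.12, adjusted p = 0.035, limma). The main HELLS probe set had the same sign there but was not called, as given above. With the Combination in MV4-11 the HELLS probe sets had both signs, between -0.32 and 0.42, and none was called.

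The second brightest TET3 probe set fell in MOLM-14 with SAHA (-0.998 ± 0.15, adjusted p = 0.0105, limma) and with the Combination (-0.83 ± 0.15, adjusted p = 0.0151, limma), so that the Combination call for TET3 depended on the probe set read. The third, at a mean signal of 33.7 with 11 of its 24 values under 32, was not called, and its change with the Combination in MOLM-14 was 0.03. The second brightest DNMT3A probe set fell with the Combination in MV4-11 (-0.93 ± 0.20, adjusted p = 0.0224, limma), where the main DNMT3A probe set was at -0.42 ± 0.14 (adjusted p = 0.111), and the third, at a mean signal of 73.4, was called in neither line. The 2 dimmer TET2 probe sets, at mean signals of 115 and 98.4, were not called but varied more than the main one. In MV4-11 the brighter of them had 93.4, 180.9 and 260.5 with the Combination, against 110.2, 67.4 and 87.8 with DMSO (0.92 ± 0.35, adjusted p = 0.154, limma), and a change of 0.80 ± 0.35 with SAHA (adjusted p = 0.307). The dimmer one had a change of -0.59 ± 0.21 with the Combination in MV4-11 (adjusted p = 0.125, limma). SUZ12 had a bright main probe set, at a mean signal of 6446, and 2 dim ones at 116 and 53.6. The brighter of these had changes of 0.34 in MOLM-14 and 0.90 in MV4-11 with the Combination (adjusted p = 0.812 and 0.303), opposite in sign to the main probe set. The second EED probe set was near the bottom of the scale, at a mean signal of 13.2, with 21 of its 24 values under 32.

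**Figure D4:**
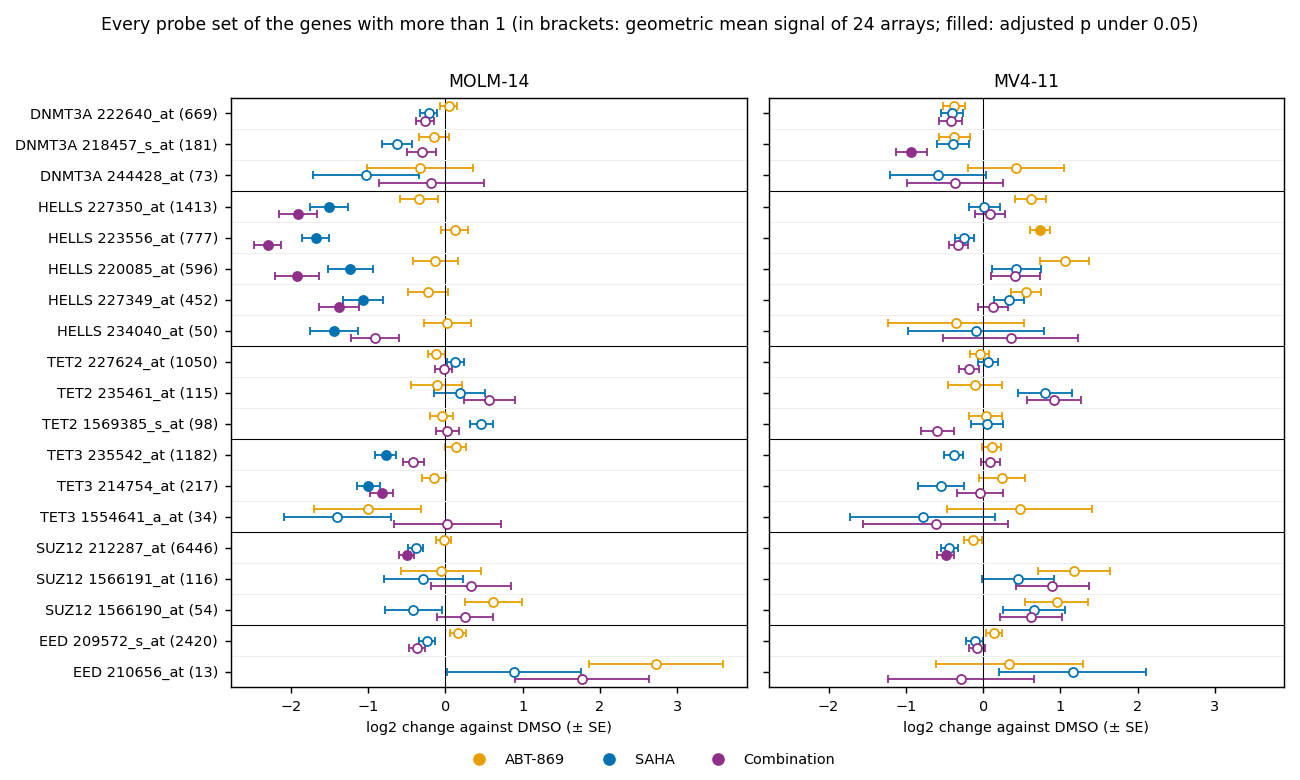
Log2 change against DMSO (horizontal axis, ± SE) of every probe set of the genes with more than 1, in MOLM-14 (left) and MV4-11 (right), with the mean signal in brackets and called points filled. The HELLS probe sets lie together below 0 in MOLM-14 with SAHA and the Combination, while the dim SUZ12 probe sets (116 and 53.6) and the dim EED probe set (13.2) have wide error bars.

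The levels of 20 S phase genes are given beside those of the members. Of these, 17 were called lower and none higher with SAHA in MOLM-14 (median change -1.14), and all 20 were lower with the Combination (median -1.54). In MV4-11, 1 was higher and 1 lower with SAHA (median -0.17), and 2 were higher and 7 lower with the Combination (median -0.31). Of all genes, 3.62% were called lower with SAHA and 4.18% with the Combination in MOLM-14, and 1.52% and 5.82% in MV4-11. Called higher in MV4-11 were 2.45% of all genes with SAHA and 7.10% with the Combination. The summed signal of the list was between 52145 and 66268 with SAHA and between 38573 and 52315 with the Combination in MOLM-14, against 102636 to 123378 with DMSO. In MV4-11 it was between 67497 and 71627 with SAHA and between 56646 and 65911 with the Combination, against 77446 to 78206 with DMSO. With ABT-869 alone, none of the 20 was called in MOLM-14 (median 0.12), whereas in MV4-11 UNG (0.66) and CCNE2 (0.999) were higher, 17 of the 20 had a positive change (median 0.42) and 13 an unadjusted p under 0.05 (limma). No member was called in that comparison, where 0.516% of all genes were called higher. The part of this shift in the changes of the members was not tested.

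Of 15 mitosis genes, 5 were lower with SAHA and 5 with the Combination in MOLM-14, whereas 4 were lower with SAHA and all 15 with the Combination in MV4-11 (median -1.41), the comparison in which DNMT3B fell most. Their summed signal was between 17805 and 21188 with the Combination in MV4-11, against 48829 to 50825 with DMSO. The shares of all genes called lower were 3.62% with SAHA and 4.18% with the Combination in MOLM-14, and 1.52% and 5.82% in MV4-11. Of 8 myeloid and monocytic markers with a probe set of their own, 1 was higher and 1 lower with SAHA and with the Combination in MOLM-14. MPO, a granule peroxidase, changed by -2.74 with SAHA and ITGAM, an integrin of myeloid cells, by 1.002 (adjusted p = 0.00836 and 0.00835, limma). The summed signal of these 8 markers was between 40106 and 43449 with SAHA, against 40942 to 41915 with DMSO, in MOLM-14. In MV4-11, 2 of the 8 were higher with ABT-869 (MPO 1.06 and CSF1R 1.07) and 2 with SAHA (ITGAM 0.84 and CSF1R 0.82), while with the Combination LYZ was higher (0.53) and MPO (-0.90) and PTPRC (-0.49) were lower. Their summed signal in MV4-11 was between 48704 and 53844 with ABT-869, between 48926 and 54110 with SAHA and between 48575 and 52484 with the Combination, against 42582 to 45527 with DMSO. The shares of all genes called higher were 0.516% with ABT-869, 2.45% with SAHA and 7.10% with the Combination in MV4-11. In MOLM-14 they were 4.20% with SAHA and 4.72% with the Combination. All 6 erythroid and megakaryocytic markers had a negative change with the Combination in MV4-11 (median -0.87), of which EPOR (-1.21) was called, and their summed signal was between 1093 and 1435, against 2111 to 2661 with DMSO. The 7 markers listed together as epithelial and stromal summed to between 2769 and 3588 with the Combination in MV4-11, against 4465 to 4955 with DMSO, with PECAM1 called lower. PECAM1 had by far the highest median signal of the 7 over all arrays (3950, with KRT18 next at 810), so this sum mostly follows PECAM1. The part of these markers in the changes of the members was not tested.

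Across the 24 arrays, with the mean of each line taken out, the members differed in how closely they tracked the mean of the 20 S phase genes. Pearson's r was 0.96 for UHRF1 and for DNMT1, 0.93 for HELLS and for EED, 0.91 for EZH2, 0.82 for SUZ12, 0.69 for TET3, 0.49 for DNMT3A, 0.28 for DNMT3B and -0.24 for TET2. The arrays share treatments and scaling, so these values describe the pattern only. Within the 12 arrays of a line, r was 0.85 in MOLM-14 and 0.02 in MV4-11 for DNMT3A, 0.78 and 0.31 for TET3, 0.30 and 0.50 for DNMT3B, and -0.43 and 0.14 for TET2, while the other 6 members were between 0.95 and 0.98 in MOLM-14 and between 0.65 and 0.89 in MV4-11. With the mean of the 15 mitosis genes, DNMT3B had r = 0.73 over the 24 arrays, 0.10 in MOLM-14 and 0.92 in MV4-11. Among 11955 candidate genes, DNMT1 was most like MCM7 (r = 0.98) and EED most like MCM5 (0.93), both subunits of the replicative helicase, and UHRF1 most like TOPBP1 (0.97), a replication and checkpoint protein. DNMT3B was most like HMGCS1 (0.94), an enzyme of cholesterol synthesis, and SUZ12 most like SPHK1 (0.97), a sphingosine kinase. EZH2 was most like GAL (0.96), HELLS like CASP8AP2 (0.95), TET3 like EWSR1 (0.92), DNMT3A like ARPC5L (0.84) and TET2 like IL21R (0.82), all over the 24 arrays. Among the members themselves, DNMT1 and UHRF1 had the highest r, at 0.97.

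The other genes of the same pathways are set against all genes, of which 7.82% were called in either direction with SAHA and 8.91% with the Combination in MOLM-14, and 12.9% with the Combination in MV4-11. Of 18 further DNA methylation genes, 2 were lower with SAHA and 1 with the Combination in MOLM-14, with medians of -0.06 and -0.10. UHRF2, a relative of UHRF1, fell with SAHA in MOLM-14 (-0.53 ± 0.11) and in MV4-11 (-0.57 ± 0.11), and IDH2, a mitochondrial source of the cosubstrate of TET enzymes, fell with the Combination in MOLM-14 (-0.57 ± 0.11) and in MV4-11 (-0.84 ± 0.13). In MV4-11 the Combination gave 2 higher and 2 lower of the 18, so 4 in all. Those higher were MAT2A, which makes the methyl donor S-adenosylmethionine (0.87 ± 0.12, adjusted p = 0.00263, limma), and AHCY, which removes its spent form (0.48 ± 0.12, adjusted p = 0.0388, limma).

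Of 11 further PRC2 genes, 1 was called with SAHA and 2 with the Combination in MOLM-14, and 4 with the Combination in MV4-11. JARID2, an accessory subunit, rose with the Combination in MOLM-14 (0.62 ± 0.13) and in MV4-11 (0.70 ± 0.16) and with SAHA in MOLM-14 (0.57 ± 0.13), with adjusted p between 0.0252 and 0.0368 (limma). RBBP4, a histone-binding subunit, fell with the Combination in MOLM-14 (-0.54 ± 0.12). In MV4-11, PHF1 (-0.85 ± 0.17) and PHF19 (-0.63 ± 0.14), both Polycomb-like accessory proteins, fell and EPOP (0.90 ± 0.20) rose with the Combination (adjusted p between 0.0169 and 0.0266, limma). Of 16 genes of Polycomb repressive complex 1 (PRC1), the Combination gave 2 higher and 1 lower in MOLM-14 and 1 higher and 1 lower in MV4-11, with PCGF2 higher in MOLM-14 (0.78 ± 0.18) and in MV4-11 (0.60 ± 0.14).

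Of 9 genes whose products oppose Polycomb, NSD2, a histone methyltransferase, fell with the Combination in MOLM-14 (-0.98 ± 0.15) and in MV4-11 (-0.72 ± 0.17). KDM6B, a demethylase that removes the mark PRC2 places, fell in MV4-11 (-0.71 ± 0.13, adjusted p = 0.00878, limma). Of 10 germline genes that DNA methylation keeps silent in somatic cells, none was called with any treatment in either line (limma), and at most 2 of the 10 had an unadjusted p under 0.05 in any of these 6 comparisons. The summed signal of the 10 was between 174.4 and 431 over all arrays, and their mean log2 between 3.31 and 5.08. These levels are near the bottom of the scale, where changes have no firm size, so the missing calls say little about silencing.

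**Figure D5:**
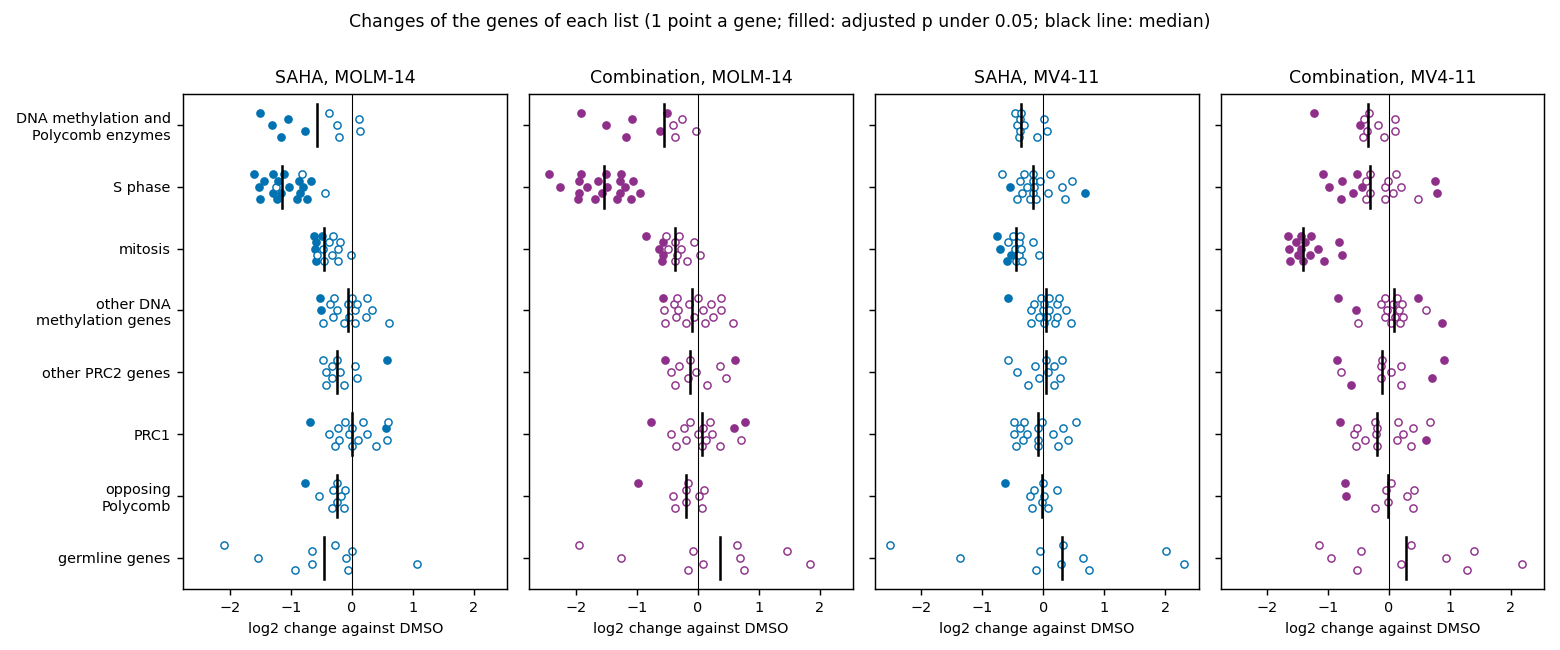
Log2 change against DMSO (horizontal axis, 1 point per gene, called genes filled, black line at the median) for the DNA methylation and Polycomb enzymes and for the other gene lists, with SAHA and the Combination in MOLM-14 and in MV4-11. The S phase genes lie furthest below 0 in MOLM-14 (medians -1.14 and -1.54) and the mitosis genes in Combination-treated MV4-11 cells (median -1.41).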

How the data were processed

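MV4-11 and MOLM-14 cells were profiled on Affymetrix U133 Plus 2.0 arrays (biotin-labelled cRNA from total RNA, biological triplicates). The values deposited by the authors are linear signal intensity values per probe set, scaled per array; the program that made them was not given in the sources used here. Signals under 1 were raised to 1 (0.209% of values) and taken to log2. Genes were named from the platform annotation, and of 54613 non-control probe sets 41091 named 1 gene; a gene was read by its probe set with the highest mean log2. limma 3.58.1 in R 4.3.3 fitted 1 model per line (12 arrays, 4 groups) and 1 over all 24 arrays for contrasts between lines. The fit was tested on simulated data. Array number limits the precision: log2 changes had a median standard error of 0.168 in MOLM-14 and 0.187 in MV4-11, p-values measure the spread between these cultures, and an exact permutation test of 3 against 3 arrays cannot go below 0.1. Outside the members, the named genes were, from each list, treatment and line, up to 2 largest called rises and 2 largest called falls, and the gene most like each member; for myeloid, epithelial and stromal markers the levels of the whole list are given. Members, gene lists and motifs were chosen with earlier results of these data known. Promoters came from RefSeq (GRCh38.p14). Alternatives covered normalization, the floor, dim probe sets, the variance model, the arrays fitted, the probe set read and each array left out.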

Additional observations from a re-analysis of the deposited data

Results flagged for a closer look

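The change of 4 genes differed between the lines by a test of the difference itself (limma, MOLM-14 minus MV4-11, log2 scale). With SAHA, HELLS differed by -1.52 ± 0.31 (adjusted p = 0.0237), UHRF1 by -0.91 ± 0.19 (adjusted p = 0.0253), EZH2 by -0.70 ± 0.16 (adjusted p = 0.0399) and DNMT1 by -0.69 ± 0.14 (adjusted p = 0.0208). With the Combination, HELLS differed by -2.001 ± 0.31 (adjusted p = 0.000724), UHRF1 by -1.09 ± 0.19 (adjusted p = 0.00181), DNMT1 by -0.84 ± 0.14 (adjusted p = 0.00116) and EZH2 by -0.71 ± 0.16 (adjusted p = 0.0101). The lines also differed with DMSO and in the S phase genes, whose part in this was not tested.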

How the results depend on the processing

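The counts rest on 3 arrays per group and change with the fit. Shares of all genes were counted for the main fit only, so the counts under other settings have no background beside them. With only the groups compared in the fit, the count of genes called was 0 for SAHA against DMSO in MOLM-14, 0 for the Combination against DMSO in MOLM-14 and 1 in MV4-11, 3 for the Combination against ABT-869 in MOLM-14 and 0 in MV4-11, 0 for the Combination against SAHA in MV4-11, 0 for the SAHA difference between the lines and 0 for the lines with DMSO, since fewer arrays then set the spread. In MV4-11, 4 settings raised the counts: 1 fit over all 24 arrays, limma-trend, only probe sets above the median signal, and signals under 32 raised to 32. They called 4, 5, 4 and 4 genes for SAHA against DMSO, 5, 6, 6 and 6 for the Combination against DMSO, 5, 5, 5 and 6 for the Combination against ABT-869, and 2 each for the Combination against SAHA. The first 3 of these called 1 gene for the Combination against SAHA in MOLM-14, the last 2 called 7 for the Combination difference between the lines, and limma-trend called 2 for ABT-869 in MV4-11. In MOLM-14, the 4 settings also called SUZ12 lower with SAHA, and TET3 and EED lower with the Combination (adjusted p between 0.00137 and 0.0423, limma). Centring on the array medians gave 1 for the Combination against DMSO and 1 against ABT-869 in MV4-11, 1 against SAHA in MOLM-14 and 1 for the SAHA difference. Counting genes with at least a 2-fold difference and no test gave 4 and 0 for the Combination against ABT-869 in MOLM-14 and MV4-11, 1 against DMSO and 0 against SAHA in MV4-11, 2 for the Combination difference, 1 for the SAHA difference and 1 for the lines with DMSO.

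Reading the mean of all probe sets gave 4 for the Combination against ABT-869 in MOLM-14 and 1 against DMSO in MV4-11, and the second brightest probe set gave 1 for ABT-869 in MV4-11. SUZ12 turned its direction with the Combination under both readings, to 0.34 and 0.029 in MOLM-14 and to 0.90 and 0.34 in MV4-11 (second brightest and mean), none of them called. Without the 4 arrays that stood apart (MV4-11 ABT-869 replicate 2, MV4-11 Combination replicate 3, MOLM-14 Combination replicate 1 and MOLM-14 DMSO replicate 3) the count in MV4-11 was 1 for the Combination against ABT-869 and 0 against SAHA. Quantile normalization moved no count of members by over 1.5 times.

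Deviations of same-numbered arrays correlated over 0.1 in 6 of 18 pairs in MOLM-14 (median r 0.0637, against -0.020 over 36 pairs of other numbers, 2 of them over 0.1) and in 1 of 18 in MV4-11 (median -0.0143, against 0.00101, with 7 of 36 over 0.1). Same-numbered arrays were thus somewhat more alike than others in MOLM-14 but not in MV4-11. The main fits still took the arrays of both lines to share only a number. With the replicate number as a block, the count in MV4-11 was 1 for the Combination against DMSO and 0 against SAHA, and DNMT3B with the Combination in MOLM-14 had an adjusted p of 0.0716 and SUZ12 in MV4-11 of 0.0733; no other change of a member against DMSO gained or lost its call. With 1 array left out, the counts were 3 to 5 for SAHA and 4 to 6 for the Combination against DMSO in MOLM-14, 4 to 7 for the Combination against ABT-869 in MOLM-14, 1 to 2 for the Combination against DMSO, 1 to 3 against ABT-869 and 0 to 1 against SAHA in MV4-11, 0 to 4 for the SAHA difference, 4 to 5 for the Combination difference, 5 to 7 for the lines with DMSO and 0 to 0 elsewhere. DNMT3B with the Combination in MV4-11 was called in 23 of 23 settings (log2 change between -1.33 and -1.16). DNMT3B has 1 probe set, so reading the second brightest or the mean of all probe sets could not test this call. Of all values, 30.3% were under 32, where changes have no firm size.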
